A study of Mus musculus with 10 samples.

Results

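The Camk2 genes encode calcium/calmodulin-dependent protein kinase II (CaMKII) and its inhibitors, and 6 of them were followed across 10 mouse livers in 4 groups: the kinase genes Camk2a, Camk2b, Camk2d and Camk2g, and the inhibitor genes Camk2n1 and Camk2n2. The 6 were taken out of 55291 genes in the count table because Camk2b was lower in vehicle-treated livers with the Bap1 guide than in vehicle-treated livers with the control guide. That comparison therefore chose the set, and its values are given as a description without a test. All 6 genes passed the filter on low counts that left 17015 genes for testing.

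CaMKII is a serine/threonine kinase that is switched on when calcium-loaded calmodulin binds its regulatory segment. Phosphorylation of a threonine in that segment keeps the kinase active after calcium falls. In hepatocytes, calcium rises in response to glucagon, adrenaline, vasopressin, angiotensin II and extracellular ATP, and CaMKII is known for its part in glucose production. Camk2a and Camk2b are known mainly as brain and muscle forms, Camk2d and Camk2g are expressed in many tissues, and the small proteins encoded by Camk2n1 and Camk2n2 bind and inhibit the active kinase.

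The livers came from female Cas9 Lox-Stop-Lox mice aged 16 to 20 weeks, in which Cas9 is made only after Cre removes a stop cassette. All of them received AAV8-U6-sgRNA-TBG-Cre, a virus that carries a guide RNA and a Cre. The Cre is driven by the thyroid hormone-binding globulin promoter, which is active in hepatocytes, so that editing was aimed at these cells. Bap1 was not measured by cell type here. NTC animals carried a non-targeting guide and sgBap1 animals a guide against Bap1, which encodes a deubiquitinase of histone H2A. At day 10 each mouse was given carbon tetrachloride (CCl4, diluted in olive oil), a toxin that injures hepatocytes around the central vein, or olive oil as vehicle (Veh), and mRNA of the right lobe was sequenced 48 h later. The groups were NTC-Veh (n = 2), sgBap1-Veh (n = 2), NTC-CCl4 (n = 3) and sgBap1-CCl4 (n = 3).

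The libraries held 3.30e+07 to 5.22e+07 counts, at which 3 counts corresponded to 0.0511 to 0.112 counts per 1000000 (CPM, scaled by the TMM factors of edgeR). Bap1 was at 34.8 ± 0.0264 CPM (SD, n = 2) in NTC-Veh against 18.5 ± 1.35 CPM (n = 2) in sgBap1-Veh, and at 30.3 ± 1.001 CPM (n = 3) in NTC-CCl4 against 19.3 ± 2.43 CPM (n = 3) in sgBap1-CCl4, with no overlap between guides under either treatment. The summed hepatocyte markers, 7 genes, took 118342 to 164080 CPM with vehicle and 67476 to 86542 CPM with CCl4. Liver 2 of sgBap1-CCl4 stood apart by fat cell markers, with Adipoq at 36.3 CPM and Plin1 at 34.5 CPM, where every other liver had 0 to 2 counts of either. The results below are given without this liver where it moves them.

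The 4 kinase genes have closely related coding sequences, so the part around the regulatory threonine is shown to let a reader see how reads of 50 bases can tell them apart. The stretch of 60 bases lay within exon 11 of the longest coding transcript of each gene in the GENCODE vM21 annotation of GRCm38, read 5′ to 3′ on the strand of the gene, with the threonine codon at bases 31 to 33. Capitals mark bases that differ from Camk2b.
Camk2b (chr11:5988970-5989029, minus strand): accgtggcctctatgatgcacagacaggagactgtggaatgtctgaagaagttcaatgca
Camk2d (chr3:126797711-126797770, plus strand): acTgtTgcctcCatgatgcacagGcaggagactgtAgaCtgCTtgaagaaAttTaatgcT
Camk2g (chr14:20760412-20760471, minus strand): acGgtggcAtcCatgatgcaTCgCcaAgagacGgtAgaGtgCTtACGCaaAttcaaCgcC
Camk2d differed from Camk2b at 11 and Camk2g at 19 of these 60 bases. Over whole transcripts, the longest identical runs among the 6 genes were of 34 bases, shared by Camk2a with Camk2b and with Camk2d. It was 29 bases between Camk2b and Camk2g (agagagtactacagtgaagctgatgccag), 23 bases between Camk2d and Camk2g (atcaacaatggggactttgaggc) and 23 bases between the inhibitors Camk2n1 and Camk2n2 (cccaagctgggccagatcggccg). Transcripts were compared in their own 5′ to 3′ direction only, so stretches shared with a gene on the opposite strand were not looked for. In that comparison Camk2d, Camk2g, Camk2n1 and Camk2n2 shared no stretch of 50 bases with any other annotated gene. Camk2b shared 10 of its 9443 such stretches, 8 of them with Gm9910, and Camk2a shared 19 of 7516.

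The members lie on different chromosomes. In GRCm38, Camk2a lies on chromosome 18, Camk2b spans chr11:5969644-6066362 (minus strand), Camk2d chr3:126596302-126846326 (plus), Camk2g chr14:20734875-20794088 (minus), Camk2n1 chr4:138454314-138460123 (plus) and Camk2n2 chr16:20619215-20621287 (minus). Camk2n2 lies inside the protein-coding gene Gm49333 on the opposite strand, and Camk2d contains 7 unconfirmed (TEC) loci on its own strand and the antisense gene Gm15551. The libraries were made with a stranded kit, but the strand setting of the counting is not given in the sources used here, so reads of Camk2n2 and Gm49333 that overlap may not have been told apart.

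Camk2b, the kinase gene that defined the set, was high in one group only. It had 639 and 579 counts in the NTC-Veh livers, or 17.4 and 16.04 CPM. The sgBap1-Veh livers had 2.96 and 5.31 CPM, from 110 and 142 counts. The NTC-CCl4 livers had 2.83, 2.10 and 2.55 CPM, and the sgBap1-CCl4 livers had 2.64, 2.86 and 2.34 CPM.
Both NTC-Veh livers thus lay far above the other 8, which spanned 2.10 to 5.31 CPM, and liver 1 of sgBap1-Veh lay just above the highest CCl4 liver. On the log2 scale, Camk2b differed by -2.03 between sgBap1-Veh and NTC-Veh, a 4.10-fold lower level, and by -2.75 between NTC-CCl4 and NTC-Veh, a 6.71-fold lower level. Both values use the NTC-Veh livers that chose the gene and carry no test. In bulk liver, fewer cells of a type and less RNA per cell cannot be told apart. Leaving out 1 liver at a time moved the first to between -2.50 and -1.66 and the second to between -2.85 and -2.63.
Between sgBap1-CCl4 and sgBap1-Veh the Camk2b difference was -0.64, and it was -0.18 without liver 2 of sgBap1-Veh and -1.02 without liver 1 of that group, so its size rested on those 2 livers.

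**Figure D1:**
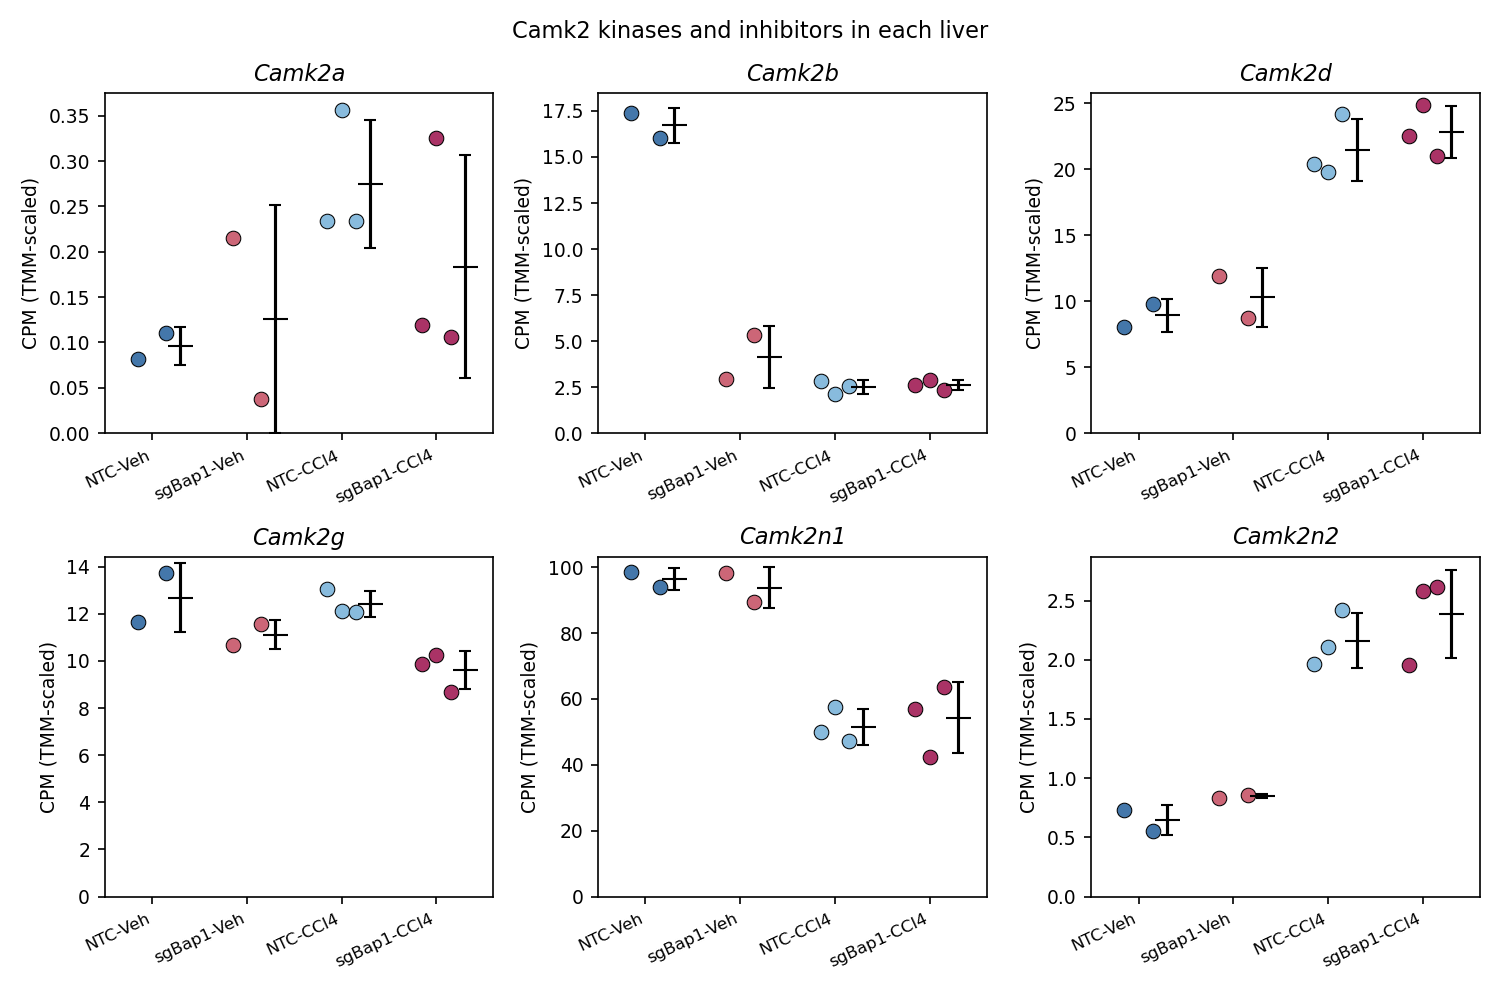
CPM (TMM-scaled, y axis from 0 in each panel) of the 6 genes in each of the 10 livers; points are livers, the short line and bar beside them the group mean and SD (n = 2 for vehicle, n = 3 for CCl4). Camk2b is at 16.04 to 17.4 CPM in NTC-Veh and at 2.10 to 5.31 CPM in the other 8 livers, while Camk2d, Camk2n1 and Camk2n2 separate vehicle from CCl4 livers.

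The CCl4 livers allow a comparison of the guides on livers that the choice of the set did not use. Camk2b was at 2.50 ± 0.369 CPM (SD, n = 3) in NTC-CCl4 and 2.61 ± 0.261 CPM (n = 3) in sgBap1-CCl4, and the groups overlapped. The log2 fold change was 0.07 (SE 0.21, 95% interval -0.39 to 0.54; edgeR quasi-likelihood test, adjusted p = 0.921). None of the 6 genes passed this test, against 0.329% of all genes tested; at an unadjusted p, 2376 of 17015 genes were under 0.05, Camk2g among the 6, and DESeq2 called none of the 6 either.

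The start of Camk2b is shown because it is the gene whose level set the group apart. The 250 bases before its RefSeq start (GRCm38.p6, chr11:6065749-6065998, minus strand) are given with each CG in capitals, a motif that reads the same on both strands. The 2 annotations differ here: in GENCODE vM21 the gene reaches to base 6066362, so this stretch lies within its annotated span.
Camk2b: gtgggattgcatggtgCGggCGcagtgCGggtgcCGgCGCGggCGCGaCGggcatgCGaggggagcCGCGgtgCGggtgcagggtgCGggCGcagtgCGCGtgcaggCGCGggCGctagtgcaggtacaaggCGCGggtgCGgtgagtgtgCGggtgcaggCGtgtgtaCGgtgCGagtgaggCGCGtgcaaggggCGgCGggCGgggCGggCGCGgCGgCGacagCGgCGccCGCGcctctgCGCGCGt
This stretch held 44 CG, and 0.539% of 32851 RefSeq promoters of the same length held as many, where the median was 6. The corresponding counts were 39 for Camk2n2 (1.56% of promoters held as many) and 23 for Camk2d (13.3%). The Camk2d stretch also lies within the GENCODE span of its gene. The counts describe sequence alone, since no chromatin measurement was analysed here.

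Camk2d, a widely expressed kinase gene, was higher after CCl4 with either guide. It was at 8.03 and 9.81 CPM in NTC-Veh and 11.9 and 8.72 CPM in sgBap1-Veh. The NTC-CCl4 livers had 20.4, 19.8 and 24.1 CPM, and the sgBap1-CCl4 livers 22.5, 24.9 and 21.0 CPM. Every CCl4 liver lay above every vehicle liver, and within a treatment the guides overlapped.
The log2 fold change of Camk2d with CCl4 was 1.26 (SE 0.16, adjusted p = 9.04e-05 by edgeR's quasi-likelihood test with Benjamini-Hochberg adjustment) in NTC and 1.14 (SE 0.16, adjusted p = 0.000160) in sgBap1 livers, increases of 2.40-fold and 2.21-fold. The summed macrophage and Kupffer cell markers, 6 genes, spanned 130 to 196 CPM in NTC-Veh livers and 261 to 381 CPM in sgBap1-Veh livers, against 433 to 745 CPM in NTC-CCl4 livers and 427 to 592 CPM in sgBap1-CCl4 livers, and their part in the Camk2d result was not tested. With CCl4, 4 of these 6 markers rose and none fell in NTC livers, and 3 rose and 1 fell in sgBap1 livers.

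Camk2g, the CaMKII form best known from hepatocytes, held the most even level of the kinases. It was at 11.6 and 13.7 CPM in NTC-Veh, 10.7 and 11.6 CPM in sgBap1-Veh, and 13.1, 12.1 and 12.1 CPM in NTC-CCl4. The sgBap1-CCl4 livers had 9.87, 10.2 and 8.69 CPM, the 3 lowest of all livers. With CCl4, Camk2g differed by -0.03 (SE 0.12, 95% interval -0.29 to 0.23; edgeR adjusted p = 0.847) in NTC and by -0.21 (SE 0.12, interval -0.47 to 0.05; adjusted p = 0.150) in sgBap1 livers.
These signs rest on the scaling. With library size alone, which moved the median of all genes with CCl4 to 0.50 in NTC and 0.52 in sgBap1 livers, Camk2g differed by 0.44 (adjusted p = 0.0253 by edgeR) and 0.28, that is, by less than that median. Between the guides under CCl4, the log2 fold change of Camk2g was -0.37 (SE 0.10, 95% interval -0.60 to -0.14) with the Bap1 guide, and the adjusted p was 0.151 (edgeR quasi-likelihood test). It was the 1 member of 6 whose livers did not overlap in this comparison, where 20.3% of all genes tested did not overlap, 10.1% higher and 10.2% lower. The adjusted p ranged from 0.0580 (DESeq2) to 0.296 over the alternative settings, and none passed.

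Camk2a, the brain form, was close to the limit of detection. Its counts were 3 and 4 in NTC-Veh, 8 and 1 in sgBap1-Veh, 11, 19 and 9 in NTC-CCl4, and 7, 19 and 5 in sgBap1-CCl4. The highest CPM was 0.357, and the 3 NTC-CCl4 livers lay above all 4 vehicle livers, while the sgBap1-CCl4 livers overlapped with every other group. The log2 fold change with CCl4 was 1.52 (SE 0.74, edgeR adjusted p = 0.106) in NTC and 0.42 (SE 0.74, adjusted p = 0.648) in sgBap1 livers. By library size alone the NTC value was 1.98 and passed (adjusted p = 0.0396, edgeR). In sgBap1 livers the sign turned to -0.19 without liver 2 of sgBap1-Veh and to -0.30 without liver 2 of sgBap1-CCl4. The sum of the neuron markers, 5 genes, spanned 1.27 to 1.61 CPM in the vehicle livers and 2.99 to 6.62 CPM in the CCl4 livers, with 1 of the 3 tested called higher with CCl4 under either guide and Snap25 at 0 in every group but sgBap1-CCl4. Their part in the Camk2a values was not tested.

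Camk2n1, the more abundant inhibitor gene, was lower after CCl4. It was at 98.7 and 94.0 CPM in NTC-Veh and 98.4 and 89.3 CPM in sgBap1-Veh. The NTC-CCl4 livers had 49.96, 57.5 and 47.1 CPM, and the sgBap1-CCl4 livers 56.9, 42.4 and 63.7 CPM. All vehicle livers lay above all CCl4 livers, and the guides overlapped within each treatment. Camk2n1 fell with CCl4, and its log2 fold change was -0.90 (SE 0.15, adjusted p = 0.000614 by edgeR) in NTC and -0.79 (SE 0.15, adjusted p = 0.00135) in sgBap1 livers. Scaled by library size alone, the values were -0.43 and -0.32, with adjusted p = 0.0125 and 0.0431 by edgeR. The hepatocyte markers moved with it: all 7 fell with CCl4 in NTC and 4 of 7 in sgBap1 livers, and their part was not tested.

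Camk2n2, the scarcer inhibitor gene, changed in the opposite direction. It was at 0.735 and 0.554 CPM in NTC-Veh and 0.834 and 0.861 CPM in sgBap1-Veh, from 20 to 31 counts. The NTC-CCl4 livers had 1.96, 2.10 and 2.42 CPM, and the sgBap1-CCl4 livers 1.96, 2.58 and 2.61 CPM, from 92 to 151 counts. Vehicle and CCl4 livers did not overlap. The log2 fold change was 1.74 (SE 0.25, adjusted p = 0.000254 by edgeR) in NTC and 1.49 (SE 0.25, adjusted p = 0.000511) in sgBap1 livers, increases of 3.33-fold and 2.81-fold. Several marker sums did not overlap between vehicle and CCl4 livers either. Higher with CCl4 were those of bile duct (43.1 to 51.4 CPM against 192 to 370 CPM), neutrophils (2.99 to 6.05 against 13.98 to 21.5) and smooth muscle (8.68 to 10.8 against 23.7 to 52.3). So were those of macrophages and Kupffer cells (130 to 381 against 427 to 745), neurons (1.27 to 1.61 against 2.99 to 6.62) and fat cells (4.88 to 5.999 against 11.2 to 471). The hepatocyte sum was lower with CCl4 without overlap. The part of these cell types in the Camk2n2 result was not tested.

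With Camk2b set aside, 3 of the 5 genes tested changed with CCl4 in NTC livers, 2 higher and 1 lower, where 53.9% of all genes tested were called. The count was 3 of 5 in sgBap1 livers, again 2 higher and 1 lower, where 57.0% were called, so these shares were near the background; 27.4% were called higher in NTC and 29.0% in sgBap1 livers. Of these 5 genes, 4 did not overlap between CCl4 and vehicle in NTC livers, 3 higher and 1 lower, where 71.7% of all genes did not overlap, 36.7% higher and 35.0% lower. In sgBap1 livers, 4 of the 5 did not overlap, 2 higher and 2 lower, Camk2g among the lower, against 72.2% of all genes, 37.3% higher and 34.9% lower. The same 3 genes, Camk2d, Camk2n1 and Camk2n2, passed with either guide and in every fit that left out 1 liver. The 2 comparisons share no liver. Without liver 2 of sgBap1-CCl4, the log2 fold changes in sgBap1 livers were 1.08 for Camk2d, -0.64 for Camk2n1 and 1.42 for Camk2n2. A test of the difference between the guides would include the vehicle livers that chose the set and is not given.

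**Figure D2:**
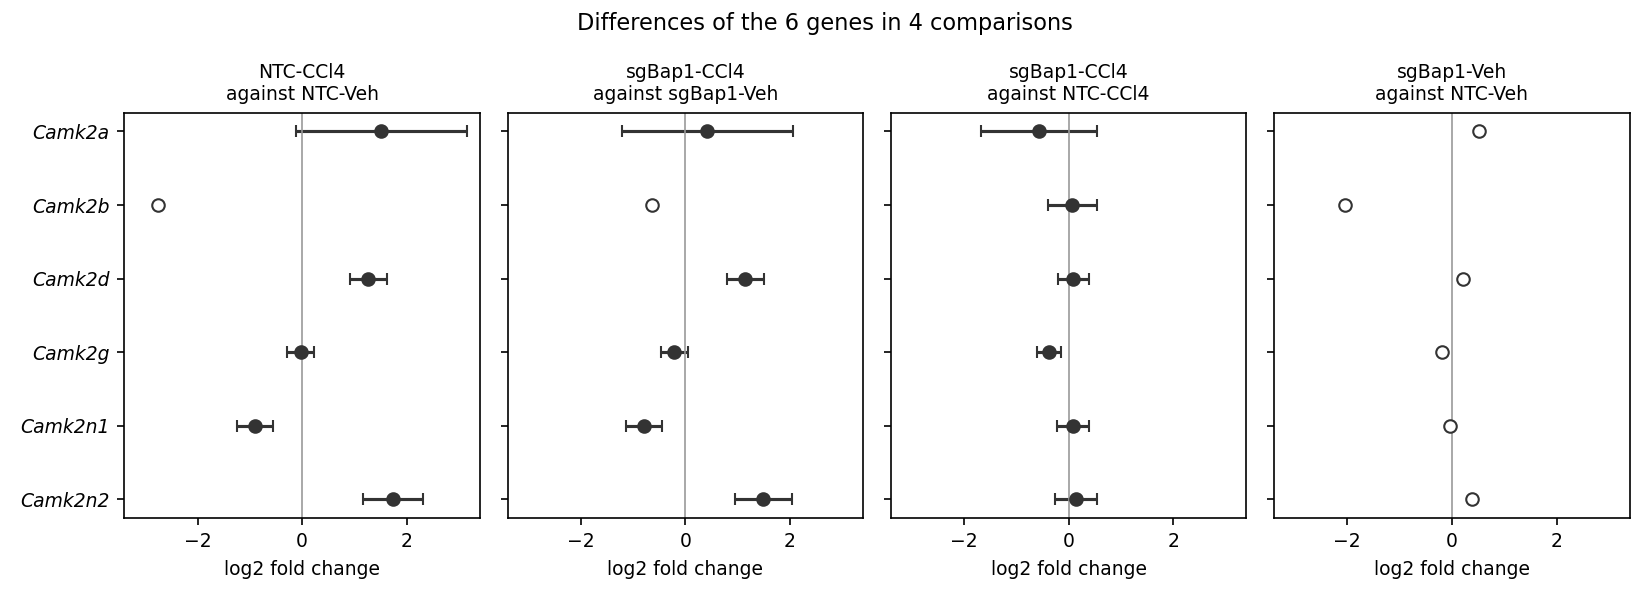
Log2 fold changes (x axis) of the 6 genes in 4 comparisons, one panel each; filled points are tested and carry 95% intervals, open points are descriptions that use the livers that chose the set. Camk2d and Camk2n2 lie at 1.14 to 1.74 and Camk2n1 at -0.90 and -0.79 with CCl4, and in sgBap1-CCl4 against NTC-CCl4 only Camk2g, at -0.37, has an interval that leaves out 0.

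For the vehicle livers, where the set was chosen, the other 5 genes showed smaller differences than Camk2b. The log2 differences of sgBap1-Veh from NTC-Veh were -0.19 for Camk2g, 0.21 for Camk2d, -0.04 for Camk2n1, 0.39 for Camk2n2 and 0.53 for Camk2a. Of these, 3 changed sign without liver 1 (Camk2a and Camk2d) or liver 2 (Camk2n1) of sgBap1-Veh: with 1 liver left out, Camk2a ranged from -1.30 to 1.14, Camk2d from -0.036 to 0.41 and Camk2n1 from -0.11 to 0.030. Camk2b and Camk2g were lower and Camk2n2 was higher without overlap, as 40.9% of all genes did not overlap, and 0.406% of all genes were called.

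Levels can be compared between genes only per length, and CPM per kilobase of annotated exons was used for this. In NTC-Veh, Camk2b and Camk2g were close to each other, at 1.83 ± 0.105 and 1.98 ± 0.228 CPM per kilobase (SD, n = 2). Camk2d was lower, at 0.396 ± 0.0559, and Camk2a was at 0.0129 ± 0.00276. The order of Camk2b and Camk2g differed between the 2 NTC-Veh livers. Of the summed level of the 4 kinase genes, Camk2b made up 46.6% and 40.4% in the NTC-Veh livers, and 12.7% and 20.9% in the sgBap1-Veh livers. Its share was 7.55% to 9.45% in the NTC-CCl4 livers and 10.0% to 10.2% in the sgBap1-CCl4 livers.
Camk2g took the largest share in every group but overlapped with Camk2b in NTC-Veh: 46.8% ± 3.38 (SD, n = 2) in NTC-Veh, 65.2% ± 0.360 (n = 2) in sgBap1-Veh livers, 60.6% ± 2.54 (n = 3) in NTC-CCl4 and 53.1% ± 0.935 (n = 3) in sgBap1-CCl4. The Camk2d share was 9.37% ± 0.920 for NTC and 17.3% ± 4.78 for sgBap1 livers with vehicle, 29.7% ± 2.76 in NTC-CCl4 and 35.9% ± 0.658 in sgBap1-CCl4. This order depends on the length used. Per kilobase of the longest coding transcript, Camk2b had the largest share in NTC-Veh, 45.2% against 37.1% for Camk2g, and Camk2d had the larger share with CCl4, 49.0% and 55.7% in NTC and sgBap1 livers, against 42.5% and 35.0% for Camk2g.
The sum of the 4 kinase genes was 4.22 ± 0.182 CPM per kilobase in NTC-Veh, 2.67 ± 0.164 in sgBap1-Veh, 3.20 ± 0.130 in NTC-CCl4 and 2.82 ± 0.252 in sgBap1-CCl4, so that both NTC-Veh livers lay above all others. Camk2b, whose lower level in sgBap1-Veh chose the set, is part of this sum and of every share. The differences of sums and shares between the vehicle groups therefore follow in part from that choice and are descriptions.

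**Figure D3:**
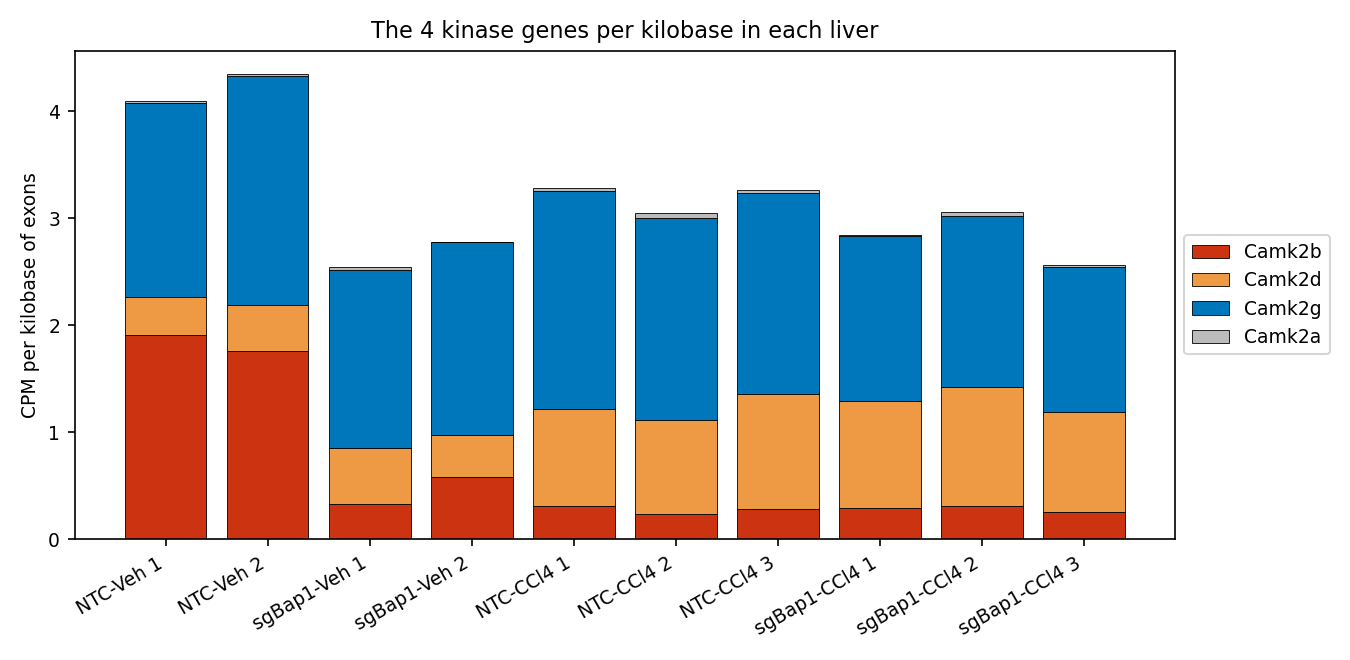
CPM per kilobase of annotated exons (y axis, from 0) of the 4 kinase genes, stacked, in each of the 10 livers (x axis). The total is 4.09 and 4.35 in the NTC-Veh livers and 2.55 to 3.29 in the other 8, where the Camk2b segment is smaller.

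Camk2n1 was the most abundant member on this scale, at 21.7 ± 0.747 CPM per kilobase in NTC-Veh, 21.1 ± 1.43 in sgBap1-Veh, 11.6 ± 1.20 in NTC-CCl4 and 12.2 ± 2.44 in sgBap1-CCl4. Camk2n2 was at 0.499 ± 0.0990, 0.656 ± 0.0145, 1.67 ± 0.182 and 1.85 ± 0.287 in the same order. The ratio of Camk2n1 to Camk2n2 was 44.1 ± 7.26 in NTC-Veh and 32.2 ± 2.90 in sgBap1-Veh (n = 2 each), and 6.999 ± 1.19 and 6.76 ± 1.86 in the CCl4 groups (n = 3 each). The ratio of Camk2n1 to the summed kinases was 4.86 and 5.42 in the NTC-Veh livers, 7.23 and 8.68 in the sgBap1-Veh livers, against 3.24 to 4.23 in the NTC-CCl4 livers and 3.12 to 5.59 in the sgBap1-CCl4 livers. The sgBap1-Veh livers had the highest ratios. The kinase sum includes Camk2b, whose lower level in sgBap1-Veh chose the set, and Camk2n1 itself was close between the vehicle groups. The vehicle ratios are therefore a description. The 2 CCl4 groups overlapped through liver 2 of sgBap1-CCl4 alone, and without it the sgBap1-CCl4 livers had 4.49 and 5.59, both above the NTC-CCl4 livers. This depends on the length used. Per kilobase of the longest coding transcript, liver 1 of sgBap1-CCl4 had 1.723 and liver 2 of NTC-CCl4 had 1.735, so the groups overlapped without liver 2 of sgBap1-CCl4 as well. These ratios compare mRNA and not protein.

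The pathway around CaMKII was described with 57 genes in 7 lists, of which 54 passed the filter. With CCl4, 17 rose and 17 fell in NTC livers, where 27.4% and 26.6% of all genes did, with a median log2 fold change of -0.03 against 0.03 over all genes, and 19 rose and 15 fell in sgBap1 livers, where 29.0% and 28.0% of all genes did, with a median of 0.12 against 0.04. Between the guides under CCl4, 2 were higher and 1 was lower, against 0.200% and 0.129% of all genes. The split moved with the scaling, since library size alone lifts every change with CCl4, and the lists below are given with both counts where they differ.

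Calm2 and Calm3, which encode calmodulin, the calcium sensor that switches CaMKII on, rose with CCl4 under either guide. Calm2 was at 100.3 to 109.9 CPM in the vehicle livers and 160.2 to 174.6 CPM in the CCl4 livers, and Calm3 was at 37.04 to 46.5 CPM and 74.9 to 94.01 CPM. Vehicle and CCl4 livers did not overlap for either gene, where 71.7% of all genes in NTC and 72.2% in sgBap1 livers did not overlap, 36.7% and 37.3% higher. The log2 fold change of Calm2 was 0.73 in NTC and 0.68 in sgBap1 livers, and that of Calm3 was 0.97 and 0.99, with adjusted p at most 0.000132 by edgeR. Neither passed between the guides under CCl4, at 0.018 and 0.06.

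The receptors that raise calcium in hepatocytes mostly fell. Of 7 genes, 6 fell and none rose with CCl4 in NTC livers, and 6 fell and 1 rose in sgBap1 livers, against 26.6% and 28.0% of all genes lower. Library size alone gave 5 lower and 1 higher in NTC livers and 6 lower and 1 higher in sgBap1 livers. The hepatocyte markers fell with CCl4 as well, all 7 in NTC and 4 of 7 in sgBap1 livers. Their median log2 fold changes were -0.99 and -0.68, against -1.17 and -1.53 for the receptors. The part of a general loss of hepatocyte RNA in the receptor result was not tested. Gcgr, the glucagon receptor, was at 265 to 305 CPM with vehicle and 65.7 to 123 CPM with CCl4, with log2 fold changes of -1.23 in NTC and -1.67 in sgBap1 livers. The fold changes were -1.57 and -1.58 for Agtr1a, a receptor of angiotensin II, and -1.07 and -1.74 for Adra1b, an adrenergic receptor.
Avpr1a, the vasopressin receptor, was the exception. Its level was 40.1 to 46.1 CPM in NTC-Veh livers against 18.1 to 18.4 CPM in sgBap1-Veh livers, and 26.6 to 32.2 CPM in NTC-CCl4 livers against 25.3 to 32.03 CPM in sgBap1-CCl4 livers. The log2 fold change of Avpr1a with CCl4 was -0.59 in NTC livers (SE 0.13, edgeR adjusted p = 0.00256) and 0.70 in sgBap1 livers (SE 0.13, adjusted p = 0.00112). By library size alone the first value was -0.11 and did not pass (adjusted p = 0.371, edgeR). P2ry2, a receptor of extracellular nucleotides, was lower with the Bap1 guide under CCl4, at 8.34 to 9.54 CPM against 14.3 to 15.6 CPM (log2 fold change -0.78, SE 0.10, edgeR adjusted p = 0.0188).

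Of 16 calcium channels and pumps, 8 were higher and 2 lower with CCl4 in NTC livers, against 27.4% and 26.6% of all genes, and 9 were higher and 1 lower in sgBap1 livers, against 29.0% and 28.0%. The NTC counts were 5 and 0 without liver 2 of NTC-Veh, 5 and 1 without liver 2 of NTC-CCl4 and 5 and 1 with the replicate number as a block, and the sgBap1 counts were 6 and 1 without liver 2 of sgBap1-Veh and with the block. By library size alone the counts were 13 and 0, and 14 and 0. Atp2b2, a plasma membrane calcium pump, was at 2.73 to 5.43 CPM with vehicle and 16.3 to 30.9 CPM with CCl4, a log2 fold change of 2.66 (SE 0.26, edgeR adjusted p = 2.36e-05) in NTC and 2.92 (SE 0.27, adjusted p = 1.63e-05) in sgBap1 livers. Orai2, a subunit of store-operated calcium channels, rose by 1.66 and by 1.45.

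Among the 7 other calmodulin-dependent kinases, 4 were tested. Camk1 rose by 1.17 in NTC and by 1.68 in sgBap1 livers, Camkk1 rose by 1.65 and by 1.23, and Camk1d fell (-1.10 and -1.30), while Camkk2, at -0.11 and 0.10, did not pass; by library size alone 3 rose in sgBap1 livers. Of the 7 phosphatases that can act on CaMKII, 2 rose and 1 fell with either guide. Over all genes tested, 53.9% were called in NTC and 57.0% in sgBap1 livers. With library size alone, 6 of the phosphatases rose and none fell. In sgBap1 livers none fell without the low-count filter, with the replicate block, with the 2 groups alone, or without any 1 of the 4 vehicle livers, liver 1 of NTC-CCl4 or livers 1 or 3 of sgBap1-CCl4.
Of the 6 genes of calcineurin, the phosphatase that calmodulin also activates, and its regulators, 1 rose and 2 fell with CCl4 under either guide. Of all genes tested, 27.4% rose and 26.6% fell in NTC livers, and 29.0% rose and 28.0% fell in sgBap1 livers. Library size alone gave 3 higher and none lower in NTC livers and 3 higher and 2 lower in sgBap1 livers. Rcan1, a calcineurin inhibitor, was at 14.2 to 16.1 CPM in NTC-Veh against 22.5 to 23.8 CPM in sgBap1-Veh livers, and at 41.7 to 46.3 CPM in NTC-CCl4 against 61.5 to 80.1 CPM in sgBap1-CCl4 livers. It rose with CCl4 by 1.53 and by 1.60, and was higher with the Bap1 guide under CCl4 by 0.68 (SE 0.10, edgeR adjusted p = 0.0320). This call was lost with library size alone (adjusted p = 0.0542), the replicate block (0.0678) and the 2 groups alone (0.0781), each by edgeR. Rcan2 fell, by -0.85 in NTC and -2.34 in sgBap1 livers, and the first call was lost with library size alone (-0.39) and without liver 2 of NTC-Veh (-0.37), liver 1 of NTC-CCl4 (-0.74) or liver 3 of NTC-CCl4 (-0.83).

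Of 11 genes reported as substrates or outputs of CaMKII in hepatocytes, 1 rose and 5 fell with CCl4 in NTC livers, and 1 rose and 4 fell in sgBap1 livers, beside 26.6% and 28.0% of all genes lower. The counts were 0 higher and 4 lower in NTC livers without liver 2 of NTC-Veh, and 1 higher and 2 lower in sgBap1 livers without liver 1 of sgBap1-Veh. Library size alone gave 5 higher and 3 lower, and 7 higher and 1 lower. The hepatocyte markers fell with CCl4 as well, all 7 in NTC and 4 of 7 in sgBap1 livers, and their part here was not tested. G6pc, the last enzyme of glucose production, was at 457 to 758 CPM with vehicle and 49.2 to 127 CPM with CCl4, with log2 fold changes of -2.58 (SE 0.38, edgeR adjusted p = 0.000551) in NTC and -2.62 (SE 0.38, adjusted p = 0.000479) in sgBap1 livers. Pck1, which acts earlier in the same path, fell (-1.58 and -0.88), and the second call was lost without liver 1 of sgBap1-Veh (-0.68) and with library size alone (-0.42).
Foxo1, a transcription factor that drives both genes, was at 26.7 to 33.03 CPM in the NTC-CCl4 livers and 51.4 to 54.8 CPM in the sgBap1-CCl4 livers, higher with the Bap1 guide by 0.86 (SE 0.11, edgeR adjusted p = 0.0189), while G6pc differed by 0.01 and Pck1 by 0.30 and neither passed. Rcan1, Foxo1 and P2ry2 did not overlap between the guides under CCl4, where 20.3% of all genes did not overlap. They were named because they were called in this comparison, so this adds nothing to the calls. Each call was lost in some fits that left out 1 liver, with adjusted p (edgeR) up to 0.184 for Rcan1 and 0.0920 for Foxo1 and P2ry2 without liver 1 of NTC-CCl4. The same loss occurred for Foxo1 and P2ry2 without livers 2 or 3 of NTC-CCl4 or liver 1 of sgBap1-CCl4, and for Rcan1 without any of the NTC-Veh or NTC-CCl4 livers or livers 1 or 2 of sgBap1-CCl4.

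**Figure D4:**
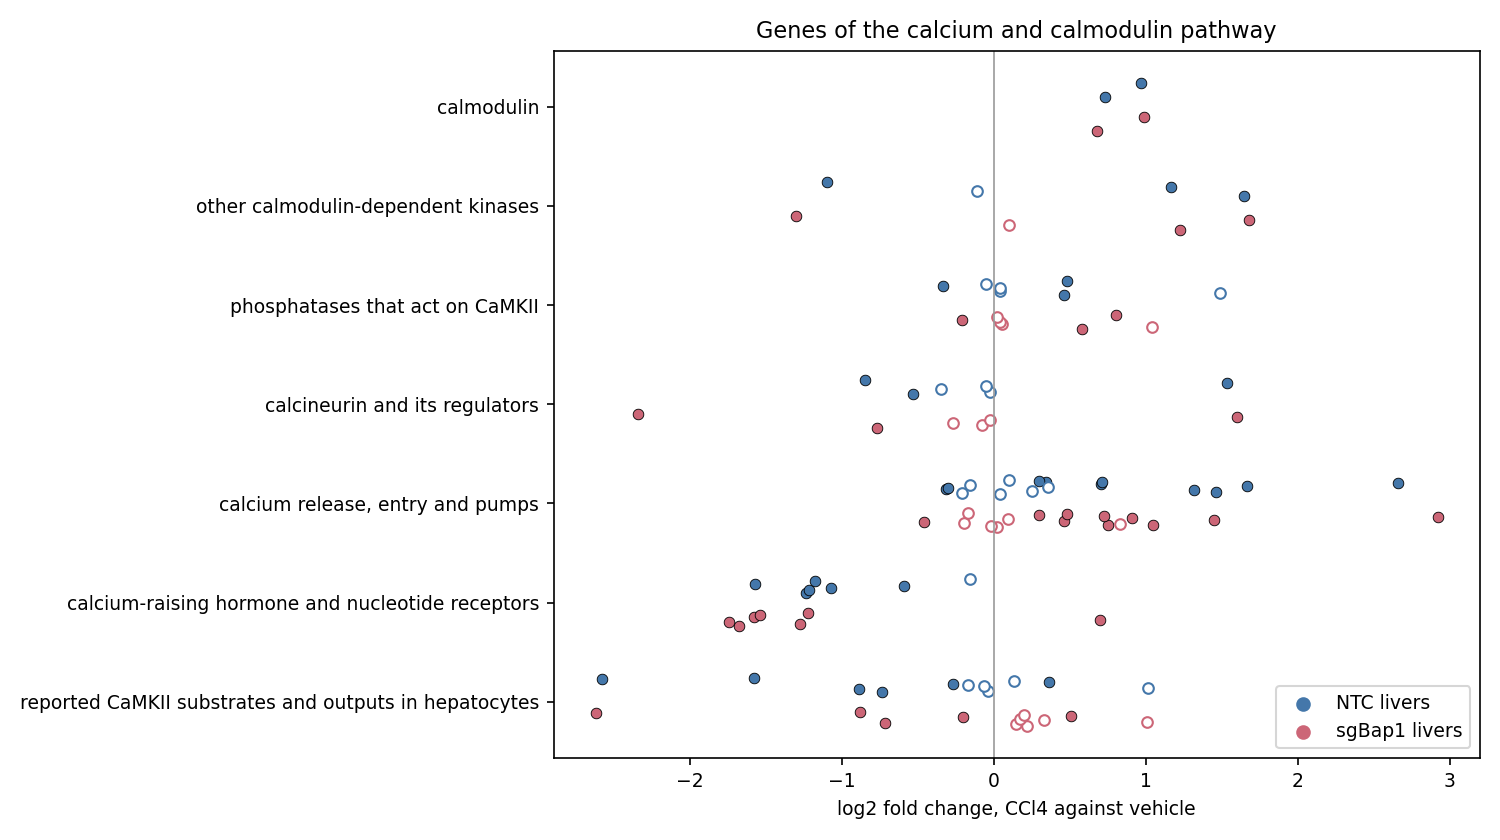
Log2 fold change with CCl4 (x axis) of tested pathway genes, grouped by list (y axis); blue points are NTC and red points sgBap1 livers, filled where the adjusted p was under 0.05. Calm2 and Calm3 lie at 0.68 to 0.99 and 6 of 7 receptors lie at -1.22 or below in sgBap1 livers, with Avpr1a at 0.70.

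The genes next to Camk2b on chromosome 11 were followed as well. Of 15 protein-coding genes within 250 kb, 12 were tested, of which 2 rose and 3 fell with CCl4 in NTC livers, 2 rose and 2 fell in sgBap1 livers, and none was called between the guides under CCl4, beside 27.4% and 26.6% (NTC) and 29.0% and 28.0% (sgBap1) of all genes higher and lower with CCl4. The NTC split turned on single livers, with 1 higher and 4 lower without liver 1 of NTC-Veh and 3 higher and 1 lower without liver 2 of NTC-Veh, and the sgBap1 split was 2 and 1 without liver 2 of sgBap1-Veh. Library size alone gave 7 higher and 1 lower under either guide.
Ykt6, a membrane fusion protein whose gene lies 1864 bases away, was at 58.1 and 61.0 CPM in NTC-Veh and 57.4 and 61.8 CPM in sgBap1-Veh. The NTC-CCl4 livers had 70.4 to 77.2 CPM and the sgBap1-CCl4 livers 79.2 to 80.5 CPM. It rose with CCl4 by 0.31 (SE 0.08, edgeR adjusted p = 0.00693) in NTC and by 0.43 (SE 0.08, adjusted p = 0.000999) in sgBap1 livers, the first not without liver 1 of NTC-Veh (0.27).

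**Figure D5:**
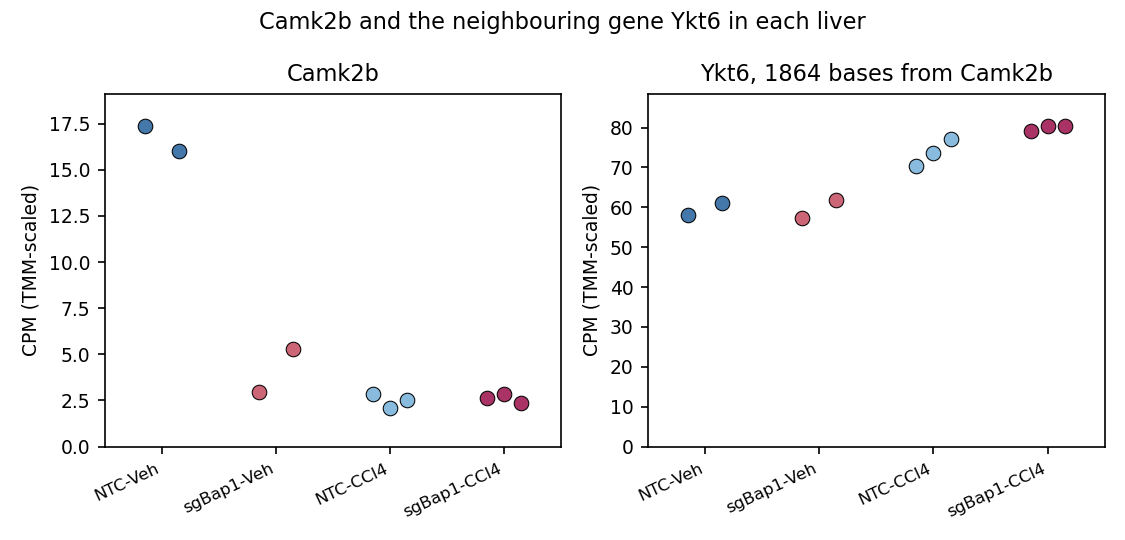
CPM (TMM-scaled, y axis from 0 in each panel) of Camk2b and Ykt6 in each liver; points are livers. With vehicle, Camk2b is lower in both sgBap1 livers, while Ykt6 spans 57.4 to 61.8 CPM in the sgBap1 livers and 58.1 to 61.0 CPM in the NTC livers.

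The genes whose levels followed Camk2b most closely were named by Pearson correlation of log2 CPM over the 10 livers, among 12027 genes averaging 100 counts or more. The livers share 4 group means, so the values are descriptions. The 8 highest were Lancl1 (r = 0.95), B4galnt1 (0.94), Lztr1 (0.93), Acadl (0.93), Pigl (0.93), Atp8b5 (0.93), Cfap410 (0.92) and Thap6 (0.92). All 8 were highest in NTC-Veh, with smaller differences than Camk2b: Lancl1 was at 20.8 to 24.2 CPM in NTC-Veh and 12.6 to 17.5 CPM in the other livers, and Acadl, an enzyme of fatty acid oxidation, was at 308 to 314 CPM against 213 to 270 CPM. By Spearman correlation 1 of the 8 remained among the top 8, and 1 to 7 did when 1 liver was left out, the fewest without liver 1 of sgBap1-Veh.
For Camk2d the closest were Itpripl2 (r = 0.996), the endocytic adaptor Dab2 (0.995) and the mechanosensitive channel Piezo1 (0.992), each lower in all vehicle than in all CCl4 livers, Dab2 at 13.9 to 22.4 CPM against 42.8 to 66.1 CPM. For Camk2g they were Tcp11l1 (0.97), the arginine methyltransferase Carm1 (0.949) and Gypc (0.927), with Carm1 at 29.6 to 30.1 CPM in the NTC-CCl4 livers and 23.7 to 27.7 CPM in the sgBap1-CCl4 livers.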

How the data were processed

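Poly(A) RNA of 10 livers was sequenced with reads of 50 bases from both ends. The authors aligned reads with STAR 2.7.6a to GRCm38 and estimated counts per gene with Salmon 1.4.0, and these estimated (expected) counts were deposited without normalization, 9.22% of them not whole. Here they were rounded and tested in 1 edgeR 4.0.16 quasi-likelihood model (R 4.3.3) with a mean for each of the 4 groups, TMM scaling and the filter filterByExpr, and p-values were adjusted by Benjamini-Hochberg over 17015 genes with a threshold of 0.05. The labels number replicates without naming the animal of each, so p-values measure the spread between these samples, which may be technical. Same-numbered livers of different groups deviated together in 2 of 13 pairs only (r over 0.1), and numbers were not used as pairs. With 2 livers in a group, their deviations from its mean mirror each other. The pairs are therefore not independent, and this check cannot exclude a pairing. CPM used TMM-scaled library sizes, and lengths and positions came from GENCODE vM21, an earlier release than the one the authors counted on. The self-test on simulated counts was run before the fits.

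The 6 genes, the pathway lists and the marker lists were chosen with earlier results of these data known. The named genes were the members, Bap1, at most 4 called pathway genes per comparison by size of change among those averaging 100 counts or more, the 8 genes most like Camk2b, 3 each for Camk2d and Camk2g, and neighbours within 250 kb. Other pathway genes (Calm2, Calm3, Camk1d, Camkk1, Camkk2, Agtr1a, Gcgr, Avpr1a among them), and Ykt6 among the neighbours, were singled out after their values were seen. Some genes that the counts include are not reported here by name. Alternatives were DESeq2 1.42.0 with its Wald test, other scalings and filters, a replicate block, the 2 groups alone, edgeR's earlier quasi-likelihood method (added after the data were seen) and each liver left out.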

Additional observations from a re-analysis of the deposited data

Results flagged for a closer look

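In 3 of the 54 tested pathway genes every CCl4 liver moved one way from the vehicle livers in NTC animals and the opposite way in sgBap1 animals. Over all genes, CCl4 and vehicle livers did not overlap for 71.7% in NTC and 72.2% in sgBap1 animals. The share of all genes that moved in opposite directions was not counted, so 3 genes cannot be set against it. Avpr1a differed by -0.59 with CCl4 in NTC livers and by 0.70 in sgBap1 livers on the log2 scale. Foxo1 differed by -0.73 in NTC and by 0.22 in sgBap1 livers, of which the second did not pass (adjusted p = 0.156, edgeR). Atf6, an endoplasmic reticulum stress sensor, differed by -0.17 and by 0.17, and neither passed. Whether the CCl4 difference itself differs between the guides is not given here by gene, because that contrast contains the comparison that chose the set. Over all 17015 genes tested, edgeR called none in that contrast, these 3 included, and DESeq2 called 420. With library size alone, the NTC and sgBap1 values were -0.11 and 1.17 for Avpr1a, -0.25 and 0.70 for Foxo1, and 0.31 and 0.65 for Atf6, so that Atf6 no longer differed in direction. Under that scaling the NTC calls of Avpr1a (adjusted p = 0.371) and Foxo1 (0.0785) were lost and Foxo1 in sgBap1 livers and Atf6 in both passed, by edgeR.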

How the results depend on the processing

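The calls of Camk2d, Camk2n1 and Camk2n2 with CCl4 held in either guide under all alternative scalings, filters and tools and without any 1 liver, and no member was called between the guides under CCl4 in any of these fits. With library size alone, 5 members were called in NTC-CCl4 against NTC-Veh, since Camk2a (1.98, adjusted p = 0.0396 by edgeR) and Camk2g passed, and Camk2g turned positive, at 0.44 in NTC and 0.28 in sgBap1 livers. Other sign changes were of values that never passed: Camk2g in NTC livers was 0.019 with the replicate block and ranged from -0.14 to 0.10 with 1 liver left out, Camk2a in sgBap1 livers ranged from -0.30 to 2.25 (-0.19 without liver 2 of sgBap1-Veh), and between the guides under CCl4 Camk2b ranged from -0.044 to 0.18 and Camk2n1 from -0.062 to 0.23. The Camk2b share of the kinases in sgBap1-CCl4 was 8.76% instead of 10.1% by the longest transcript, and 1 of the 8 genes most like Camk2b remained by Spearman correlation.

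Counts over all genes moved more. In sgBap1-CCl4 against NTC-CCl4, 56 genes were called, and 94 without a low-count filter, 24 with the replicate block, 502 with DESeq2 and 28 with the 2 groups alone. In sgBap1-Veh against NTC-Veh, 69 were called, and 32 with library size alone, 1 with the replicate block, 562 with DESeq2 and 27 with the 2 groups alone. In the interaction of guide and CCl4 none was called by edgeR (1764 at an unadjusted p under 0.05), and 2 with library size alone, 34 without a filter and 420 with DESeq2. The replicate block changed no call of a member.

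With 1 liver left out, the calls over all genes ranged from 7212 to 9374 (NTC-CCl4 against NTC-Veh), 7729 to 9599 (sgBap1-CCl4 against sgBap1-Veh), 1 to 71 (sgBap1-CCl4 against NTC-CCl4, 1 without liver 1 of NTC-CCl4, and 2 to 31 without either other NTC-CCl4 liver, liver 1 or 2 of sgBap1-CCl4 or either NTC-Veh liver), 0 to 150 (sgBap1-Veh against NTC-Veh, 0 without liver 2 of NTC-Veh and 150 without liver 2 of sgBap1-CCl4) and 0 to 7 (interaction, 7 without liver 2 of sgBap1-CCl4). The members called were 3, 3 and 0 throughout, the Camk2b share ranged over 40.4% to 46.6% for NTC-Veh and 12.7% to 20.9% for sgBap1-Veh livers, and over 8.05% to 8.996% for NTC-CCl4 and 10.1% to 10.2% for sgBap1-CCl4 livers, and 1 to 7 genes most like Camk2b remained. With 2 vehicle livers a group, leaving 1 out assumes that the lone liver varies like the others.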
